A study of Canis lupus familiaris with 24 samples.

Results

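CD20 (gene MS4A1), CD40, CD38 and CD52 are surface antigens against which therapeutic antibodies have been made, and their transcripts were followed here in canine B-cell lymphoma. All non-control probes whose RefSeq accession belongs to these 4 genes were taken, which gave 6 of the 43603 probes on the array and 4 of the 27722 genes or unnamed transcripts that could be tested. MS4A1 and CD52 had 1 probe each, and CD40 and CD38 had 2 probes each. All 6 probes lay well above background on all 24 arrays, so no member was lost to a filter on dim signals.

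Needle aspirates of peripheral lymph nodes were taken from 4 dogs with B-cell lymphoma, in each dog at a drug-resistant and at a drug-sensitive phase of the disease, and each dog and phase has 3 one-colour arrays. Dog 1 was a male Shih Tzu of 10 years, dog 2 a male Doberman of 9 years, dog 3 a castrated male French Bulldog of 3 years and dog 4 a spayed female French Bulldog of 5 years. The labels do not name the drugs, and they do not say whether the 3 arrays of a phase come from separate aspirates, so the spread between arrays may be technical and a p-value within a dog measures that spread alone. An aspirate holds tumour cells together with other cells of the node, and on such bulk RNA fewer cells of a type and less RNA per cell cannot be told apart.

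CD20 is a membrane protein carried by B cells from the pre-B stage until they become plasma cells, and rituximab and related antibodies bind it on human lymphoma cells. CD52 is a very short peptide held in the membrane of lymphocytes and monocytes by a glycolipid anchor, and is the target of alemtuzumab. CD38 is an ectoenzyme that consumes NAD on activated lymphocytes, natural killer cells and plasma cells, and is the target of daratumumab. CD40 is the receptor through which CD40 ligand on helper T cells drives B cells to survive, divide and switch class, and agonist antibodies have been raised against it.

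Levels are given as log2 of the background-subtracted spot signal minus the 75th percentile of the same array, so a level above 0 is brighter than 75% of the array and a difference of 1 is 2-fold. A probe's level depends on its own sequence, so levels were compared between samples and never between probes. A change is the resistant level minus the sensitive level of the same dog. Within a dog, a gene was said to have risen or fallen where limma's Benjamini-Hochberg adjusted p was under 0.05 and the change was at least 2-fold. On each array 71.0% to 80.9% of spots lay well above background. The arrays lay on 7 slides and were scanned in 2 sessions. The second session held the 3 resistant arrays of dog 4 alone, so session and phase cannot be told apart in that dog. For the check of the tissue label, none of 20 listed B cell markers and none of 8 plasma cell markers could be matched to a named probe, so MS4A1 itself is the B cell transcript measured.

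As processed here, CD52 fell in dogs 1, 2 and 3 by almost the same amount and had a wide range of levels between dogs. With other background handling its change was smaller in dog 1 than in dog 2, and smaller in dog 2 than in dog 3. CD38 fell by 4.22 on the log2 scale in dog 2, and was lower by less than 2-fold on its brightest probe in the other dogs. CD40 and MS4A1 stayed within 2-fold of their sensitive level in every dog. No member passed limma's adjusted test across the 4 dogs on group means, where 0 of the 27722 features did (0.0%). When the 24 arrays were fitted with the group as a random block 1755 did, CD38 and CD52 among them. That fit counts arrays, which may be technical, and arrays of a dog do not replicate dogs. On group means an unadjusted p under 0.05 was reached by 4.69% of features as lower and by 1.09% as higher.

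**Figure D1:**
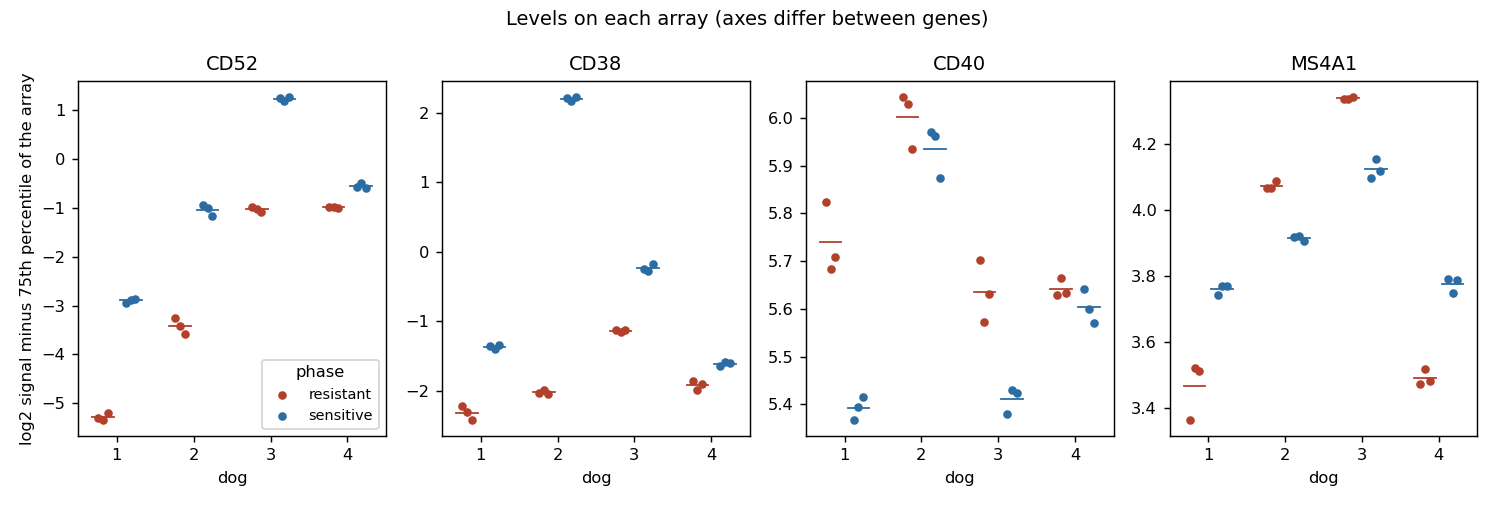
Level of each antigen on every array, by dog, for the brightest probe of the gene. The vertical axes give log2 signal minus the 75th percentile of the array and differ between genes; points are arrays, short lines are means of 3 arrays, with the resistant phase left of the sensitive phase. The CD52 points of the resistant phase lie below those of the sensitive phase in each dog, and CD38 of dog 2 has the widest gap between phases.

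The CD52 levels of dog 1 were -5.30, -5.33 and -5.19 on the resistant arrays and -2.94, -2.89 and -2.86 on the sensitive arrays. In dog 2 they were -3.25, -3.41 and -3.57 on the resistant arrays and -0.95, -0.997 and -1.17 on the sensitive arrays. In dog 3 they were -0.98, -1.03 and -1.09 on the resistant arrays and 1.25, 1.19 and 1.26 on the sensitive arrays. In these 3 dogs each resistant array lay more than 1 log2 unit below each sensitive array, and the arrays of a phase lay close together. Arrays of the phases did not overlap, in either direction and by any gap, in 62.2%, 68.7% and 55.1% of all features in these dogs. Dog 4 had -0.99, -0.98 and -1.01 on its resistant arrays and -0.57, -0.50 and -0.59 on its sensitive arrays. The phases of dog 4 did not overlap either, as in 56.4% of all features in that dog, and the gap between them was small.

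The changes of CD52 were -2.38, -2.37, -2.27 and -0.44 in dogs 1 to 4 (SE 0.07 each), or 5.21-, 5.19-, 4.82- and 1.36-fold lower in the resistant phase. The adjusted p-values of limma were 1.57e-15, 7.70e-16, 5.78e-15 and 3.42e-05. CD52 therefore fell in dogs 1, 2 and 3, and did not pass the fold threshold in dog 4. The share of all features called lower was 8.1% for dog 1, 9.84% for dog 2, 5.39% for dog 3 and 1.5% for dog 4. CD52 is 1 of 376 features (1.36%) called lower in each of dogs 1, 2 and 3, and 1 of 807 (2.91%) that were lower without overlap of arrays in all 4 dogs.

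The size of the CD52 change depended on the background correction, most of all in dog 1. There the resistant signal was only 22.5 to 23.7 fluorescence units before scaling, against 105 to 108 units in the sensitive phase. With normexp correction and an offset of 50 units the change of dog 1 was -1.06, and with quantile normalisation as a further step it was -0.90, under 2-fold. With the raw median signals it was -1.38. In the same order, these settings gave -1.71, -1.59 and -1.96 in dog 2 and -2.02, -2.01 and -2.09 in dog 3. The changes of dogs 1, 2 and 3 were thus less alike there. Where both phases of a dog lay on 1 slide, the change within that slide was -2.40 in dog 1, -2.24 in dog 2 and -2.22 in dog 3. These slides held 1 resistant and 3 sensitive arrays of dogs 1 and 3 and 3 resistant and 1 sensitive array of dog 2. No slide held both phases of dog 4.

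The change of CD52 differed between dogs, with an adjusted p of 2.13e-12 in limma's interaction test, which 78.8% of features passed. The pairs of dogs 1 and 2, 1 and 3, and 2 and 3 differed by -0.01, -0.11 and -0.11 (SE 0.09; limma adjusted p = 0.964, 0.336 and 0.380). Against dog 4 the differences were -1.94, -1.94 and -1.83 in dogs 1, 2 and 3. Without dog 4 the interaction no longer passed, with an adjusted p of 0.541. The pairs and the fit without dog 4 used the main background subtraction alone. Across the 4 dogs the mean change was -1.87 (SE 0.38, 95% interval -2.84 to -0.89), with the same sign in all 4 dogs, and limma's p was 0.00426 unadjusted and 0.635 adjusted. A feature was lower in all 4 dogs in 7.01% of cases.

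CD52 levels also differed between the dogs themselves. From high to low, the sensitive phase of dog 3 came first (1.24), then that of dog 4 (-0.55), then the resistant phases of dogs 4 and 3 (-0.99 and -1.03) and the sensitive phase of dog 2 (-1.04). The arrays of those last 3 groups overlapped. The sensitive phase of dog 1 (-2.89), the resistant phase of dog 2 (-3.41) and the resistant phase of dog 1 (-5.27) followed, each separated from its neighbours. The resistant phase of dog 3 thus stood at the sensitive level of dog 2. The range of CD52 over the 8 group means was 6.51, wider than that of 99.1% of features, whose median range was 1.21. Its low end was the resistant phase of dog 1, at 22.5 to 23.7 fluorescence units, where the change depended on the background correction. Limma's test of the level between dogs, with phase in the fit, gave an adjusted p of 0.0435, which 6.05% of features passed. It did not pass without a filter on dim probes (0.0536) or without replicate 1 (0.0578).

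CD38 on its brightest probe read -2.02, -1.99 and -2.04 on the resistant arrays of dog 2 and 2.22, 2.16 and 2.22 on the sensitive arrays. Dog 1 had -2.21, -2.30 and -2.41 in the resistant phase and -1.35, -1.40 and -1.34 in the sensitive phase. The sensitive phase of dog 2 was the highest of the 8 groups, more than 2 log2 units above any other group. In dog 3 the resistant arrays read -1.12, -1.14 and -1.13 and the sensitive arrays -0.24, -0.27 and -0.17. In dog 4 the resistant arrays read -1.85, -1.98 and -1.90 and the sensitive arrays -1.64, -1.58 and -1.59. On this probe no resistant array overlapped a sensitive array of the same dog. Arrays of the phases did not overlap in 62.2%, 68.7%, 55.1% and 56.4% of all features in dogs 1 to 4. On the second CD38 probe the phases of dog 4 did overlap, with -3.15, -3.90 and -3.93 on resistant and -3.89, -3.79 and -4.17 on sensitive arrays.

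CD38 changed by -0.94, -4.22, -0.90 and -0.31 in dogs 1 to 4 (SE 0.04 each), that is 1.92-, 18.6-, 1.87- and 1.24-fold lower in the resistant phase. The limma adjusted p-values were 2.15e-12, 6.45e-22, 6.89e-12 and 1.73e-05. CD38 fell in dog 2, where 9.84% of features were called lower, and missed the fold threshold in the other dogs. The second CD38 probe gave changes of -1.14, -3.46, -0.59 and 0.29 (SE 0.16). Tested as a probe of its own it passed the fold threshold in dog 1 as well (limma adjusted p = 8.81e-06), and in dog 4 it had the opposite sign without passing (adjusted p = 0.153). The mean of both probes changed by -1.04 in dog 1 and by -0.01 in dog 4. The second probe was dim, at 29.6 to 41.8 fluorescence units on resistant and 61.3 to 78.6 on sensitive arrays of dog 1. In dog 4 it read 44.5 to 82.4 units on resistant and 45.3 to 56.6 on sensitive arrays. This probe and the mean of both were fitted with the main background subtraction alone. Over the 8 group means the pair of probes had a Pearson correlation of 0.975.

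Within 1 slide, CD38 changed by -0.85 in dog 1, -4.24 in dog 2 and -0.89 in dog 3. The changes differed between dogs (limma interaction adjusted p = 6.94e-19, with 78.8% of features passing). Dogs 1 and 3 differed by -0.04 (SE 0.06; adjusted p = 0.591), dogs 1 and 4 by -0.64 and dogs 2 and 4 by -3.91. Across the 4 dogs the mean change was -1.59 (SE 0.69, 95% interval -3.35 to 0.16; limma adjusted p = 0.879), and without dog 2 it was -0.72. The order of levels was the sensitive phases of dogs 2 (2.20) and 3 (-0.23), the resistant phase of dog 3 (-1.13), the sensitive phases of dogs 1 (-1.36) and 4 (-1.61), and the resistant phases of dogs 4 (-1.91), 2 (-2.02) and 1 (-2.31). No neighbours in this order overlapped on the brightest probe, while some did on the second probe. The dogs spanned 1.18 log2 units in the resistant phase and 3.80 in the sensitive phase. The test of the level between dogs had an adjusted p of 0.414.

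**Figure D2:**
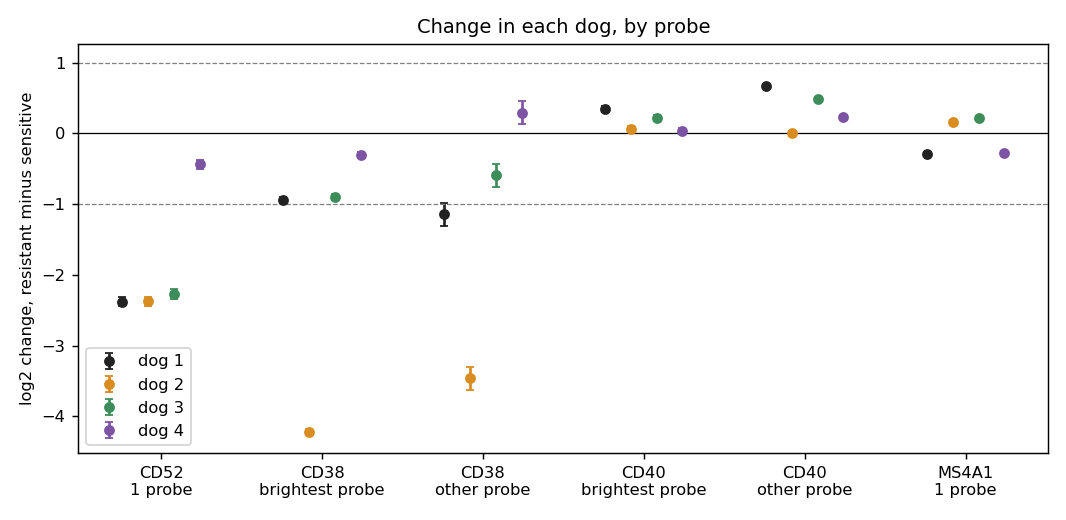
Change of each probe in each dog, in log2 units, resistant minus sensitive, with bars of 1 SE; dashed lines mark 2-fold. CD52 lies below the lower dashed line in dogs 1, 2 and 3, both CD38 probes lie below it in dog 2 with the second one also below it in dog 1, and all CD40 and MS4A1 points lie between the lines.

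CD40, the receptor, was bright and varied little on its brightest probe. Its brightest probe read 5.82, 5.68 and 5.71 on the resistant arrays of dog 1 and 5.37, 5.40 and 5.42 on the sensitive arrays. In dog 3 the resistant arrays read 5.70, 5.57 and 5.63 and the sensitive arrays 5.38, 5.43 and 5.42. In both dogs the resistant arrays lay above all sensitive arrays. Arrays of the phases did not overlap, in either direction, in 62.2% of all features in dog 1 and 55.1% in dog 3. In dog 2 the resistant arrays read 6.04, 6.03 and 5.94 and the sensitive arrays 5.97, 5.96 and 5.87. In dog 4 the resistant arrays read 5.63, 5.66 and 5.63 and the sensitive arrays 5.64, 5.60 and 5.57. On this probe the phases overlapped in dogs 2 and 4. On the second CD40 probe those of dog 4 did not, as in 56.4% of all features in that dog. It read 1.68, 1.67 and 1.68 on resistant and 1.42, 1.49 and 1.44 on sensitive arrays there.

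CD40 changed by 0.35, 0.07, 0.22 and 0.04 in dogs 1 to 4 (SE 0.04 each; limma adjusted p = 1.31e-06, 0.182, 0.000238 and 0.488). An adjusted p under 0.05 at any fold was reached by 55.0% of features in dog 1 and by 44.8% in dog 3, and no change of CD40 was 2-fold. The sign was positive in 4 of 4 dogs as scaled here, as in 8.29% of features, but in dog 2 it turned under quantile normalisation, both of the processed signal (-0.13) and after normexp background correction (-0.11), and in dog 4 under median scaling (-0.02) and quantile normalisation (-0.01). The second CD40 probe changed by 0.67, 0.00, 0.49 and 0.23 (SE 0.03), again under 2-fold, and in dogs 1 and 3 by about 2 times as much on the log2 scale as the brightest probe. The brightest probe read 32516 to 66708 fluorescence units and the second 1618 to 4432 units. No spot was marked as saturated.

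The mean CD40 change across dogs was 0.17 (SE 0.13, 95% interval -0.16 to 0.50; limma adjusted p = 0.879). The interaction test gave 0.000393. Within 1 slide the changes were 0.43, 0.13 and 0.29 in dogs 1, 2 and 3. The range over the 8 groups was 0.94 on the second probe. On the brightest probe it was 0.61, smaller than that of most features, with only 13.0% of features showing a smaller one. Dog 2 was highest in both phases, its resistant (6.002) and sensitive (5.94) arrays overlapping, followed by the resistant phase of dog 1 (5.74). The resistant phases of dogs 4 and 3 and the sensitive phase of dog 4 overlapped at 5.64, 5.63 and 5.60, and the sensitive phases of dogs 3 and 1 overlapped at 5.41 and 5.39. The level between dogs did not pass (adjusted p = 0.332).

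MS4A1, which encodes CD20, was higher in the resistant phase in dogs 2 and 3 and lower in dogs 1 and 4, always by less than 2-fold. Dog 1 had 3.37, 3.52 and 3.51 on the resistant arrays and 3.74, 3.77 and 3.77 on the sensitive arrays. Dog 4 had 3.47, 3.52 and 3.48 on the resistant arrays and 3.79, 3.75 and 3.79 on the sensitive arrays. In these dogs every resistant array was below every sensitive array. Dog 2 had 4.07, 4.07 and 4.09 on the resistant arrays and 3.92, 3.92 and 3.91 on the sensitive arrays. Dog 3 had 4.33, 4.33 and 4.34 on the resistant arrays and 4.10, 4.15 and 4.12 on the sensitive arrays. Here every resistant array was above every sensitive array.

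The MS4A1 changes were -0.29, 0.16, 0.21 and -0.28 in dogs 1 to 4 (SE 0.03 each; limma adjusted p = 3.66e-07, 0.000331, 2.26e-05 and 1.16e-06). They passed the adjusted p and not the fold threshold, in a setting where 55.0%, 59.7%, 44.8% and 46.3% of features passed the adjusted p at any fold. Arrays of the phases did not overlap in 62.2%, 68.7%, 55.1% and 56.4% of features. In dog 2 the sign turned under quantile normalisation, both of the processed signal (-0.03) and after normexp correction (-0.01), and with normexp and the 75th percentile it did not (0.17). In dog 1 the change with each array scaled to its median was -0.11 and no longer passed (limma adjusted p = 0.116). The median change of all features was -0.06, 0.11, 0.03 and 0.07 in dogs 1 to 4, and relative to it MS4A1 changed by -0.23, 0.05, 0.19 and -0.35. Relative to the same medians CD40 changed by 0.41, -0.04, 0.20 and -0.03.

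Across dogs the mean MS4A1 change was -0.05 (SE 0.16, 95% interval -0.45 to 0.35; limma adjusted p = 0.961). The sign of that mean turned without dog 1 (0.03), without dog 4 (0.03) and when each array was scaled to its median (0.03). The changes differed between dogs (interaction adjusted p = 3.37e-09): dogs 1 and 4 by -0.01 (SE 0.05; adjusted p = 0.880), dogs 2 and 3 by -0.06 (adjusted p = 0.334), and dogs 1 and 2 by -0.45. Within 1 slide the changes were -0.39, 0.17 and 0.21 in dogs 1, 2 and 3. Dog 3 had the highest levels, 4.34 in the resistant and 4.12 in the sensitive phase, followed by dog 2 with 4.07 and 3.92. The sensitive phases of dogs 4 and 1 overlapped at 3.78 and 3.76, as did the resistant phases of the same dogs at 3.49 and 3.47. The range over the 8 groups was 0.87, and 29.98% of features had a smaller one. The level between dogs did not pass (adjusted p = 0.248).

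Set against MS4A1 on the same arrays, the change of CD52 minus that of MS4A1 was -2.09, -2.53, -2.48 and -0.15 in dogs 1 to 4. The corresponding differences for CD38 were -0.65, -4.37, -1.12 and -0.02. Those for CD40 were 0.64, -0.09, 0.01 and 0.32. These differences use the brightest probes and the main background subtraction. The second CD38 probe in dog 4 and the second CD40 probe in dog 3 lay further from MS4A1. Their changes were 0.29 and 0.49, against MS4A1 changes of -0.28 and 0.21. With normexp and the 75th percentile, CD52 changed by -1.06, -1.71 and -2.02 in dogs 1, 2 and 3, beside MS4A1 changes of -0.38, 0.17 and 0.18. Over the 8 group means, which share their dogs, the antigens correlated weakly with one another: CD38 with CD52 at a Pearson correlation of 0.48, MS4A1 with CD52 at 0.45, MS4A1 with CD38 at 0.33, CD40 with CD38 at 0.18, MS4A1 with CD40 at 0.04 and CD40 with CD52 at -0.38.

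Of the related genes, those of CD40 signalling were the best covered, with 7 of 25 measured. None rose in any dog, where 3.83%, 3.98%, 1.36% and 4.06% of all features were called higher in dogs 1 to 4. CD40LG, the ligand of CD40, fell in dogs 2 and 3, by changes of -2.16 and -1.32, and its changes in dogs 1 and 4 were -0.94 and -0.06. CD86, a costimulatory ligand that CD40 induces on B cells, fell in dog 3 (-1.11), and BCL2L1, which encodes the survival protein BCL-xL, fell in dog 2 (-1.27). BCL2L1 was well above background on at most 1 of 3 arrays of each phase in dogs 3 and 4. The other measured genes, among them the NF-kappa-B subunit NFKB1 and the apoptosis inhibitors BIRC2 and BIRC3, were not called in any dog. The median of the list, with BCL2L1 of dog 3 at its bound, was -0.33, -0.21, -0.05 and -0.06 in dogs 1 to 4, beside -0.06, 0.11, 0.03 and 0.07 for all features.

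MS4A2, the beta chain of the high-affinity IgE receptor, was the 1 measured gene of 12 relatives of MS4A1. It was well above background on 3 sensitive and 0 resistant arrays of dog 1, and was at least 3.97-fold lower in the resistant phase there, its resistant level being set to the lowest signal that counted as above background on those arrays. In dog 2 the same bound was 1.58-fold. In dog 3, with 1 of 3 resistant arrays above background, its change was -3.14, and in dog 4 it was 0.02. MS4A1 moved by less than 2-fold in the same dogs.

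Of 22 other antibody targets, 5 were measured (CD80, CD86, CD47, CCR4 and TFRC), and none but CD86 in dog 3 was called. CD47, the signal by which cells resist phagocytosis, had changes of 0.28, 0.37, 0.25 and 0.23. Of genes for the glycolipid anchor and other anchored antigens, 1 of 23 was measured: PRNP, the prion protein, fell by 1.52 in dog 2 and was not called elsewhere. Of the receptors and complement genes through which antibodies act, 2 of 17 were measured. FCGR1A, the high-affinity IgG receptor of macrophages, fell in dogs 1 and 3 (-3.67 and -2.64) and rose in dog 2 (1.62), where 3.98% of features were called higher, and FCER1G, the signalling chain it shares with other Fc receptors, fell in dog 2 (-2.41). None of 22 genes of CD38 and NAD metabolism could be matched to a named probe.

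Markers of other cells of the node also changed between phases. Of all features, 8.1%, 9.84%, 5.39% and 1.5% were called lower in dogs 1 to 4, and 3.83%, 3.98%, 1.36% and 4.06% higher. Of 5 measured T cell markers (of 17), 3 fell in dog 1, all 5 in dog 2, 3 in dog 3 and 0 in dog 4. The median changes were -0.76, -4.66, -1.19 and 0.54, with a gene at its bound where it lay below background in 1 phase and left out where it did in both. The log2 summed signal of these markers was -2.01 to -1.86 on resistant and -1.34 to -1.12 on sensitive arrays of dog 1, and -1.87 to -1.81 on resistant and 2.14 to 2.22 on sensitive arrays of dog 2. In dog 3 it was -1.67 to -1.22 on resistant and -1.05 to -0.93 on sensitive arrays, and in dog 4 it was -0.99 to -0.90 on resistant and -1.52 to -1.27 on sensitive arrays. CD8A, the coreceptor of cytotoxic T cells, changed by -4.84 in dog 2 and by -0.34, -0.22 and -0.36 in dogs 1, 3 and 4. CD28 and ICOS, T cell costimulatory receptors, were not above background on any resistant array of dog 2 and were at least 29.6-fold and 11.04-fold lower there. ICOS is 1 of the 3 T cell markers counted as fallen in dog 1, but lay below background on all arrays of both phases there, so it has no fold change, and CD28 was above background on 1 of 3 resistant arrays of dog 1. CTLA4, an inhibitory receptor of T cells, was likewise below background on the resistant arrays of dog 1 and at least 9.73-fold lower.

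The natural killer and cytotoxic cell list had 2 of 11 genes measured, the receptor gene KLRD1 and the chemokine gene CCL5. Both fell in dogs 1 and 2, where 8.1% and 9.84% of all features were called lower. Their changes were -1.56 and -2.91 in dog 1 and -6.42 and -6.24 in dog 2. KLRD1 fell in dog 3 (-1.48), and neither was called in dog 4. The summed signal of this list was -2.41 to -2.24 on resistant and 0.30 to 0.48 on sensitive arrays of dog 1, -1.13 to -0.97 on resistant and 5.17 to 5.21 on sensitive arrays of dog 2, -1.49 to -1.42 on resistant and -0.53 to -0.40 on sensitive arrays of dog 3, and -1.02 to -0.81 on resistant and -1.33 to -1.02 on sensitive arrays of dog 4. This sum rests mostly on the CCL5 probe, whose level in the sensitive phase of dog 2 was 5.14, against 0.29 for KLRD1. The sensitive phase of dog 2 was the highest of the 8 groups for CD38 and for the summed signal of the T cell and natural killer cell lists. It was also the highest for the macrophage and dendritic cell lists below. The part of T and natural killer cells in the changes of CD52 and CD38 was not tested.

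Markers of stroma and vessels were lower in the resistant phase of all 4 dogs when summed. Of 10 measured (of 14), 4, 7, 7 and 2 fell in dogs 1 to 4, where 8.1%, 9.84%, 5.39% and 1.5% of features were called lower. In dog 1, where 3.83% of features were called higher, 1 rose. The median changes of these markers were -0.43, -1.67, -1.50 and -0.27. Their log2 summed signal was 1.62 to 1.64 on resistant and 2.19 to 2.22 on sensitive arrays of dog 1, 2.28 to 2.38 on resistant and 3.42 to 3.45 on sensitive arrays of dog 2, 2.81 to 2.87 on resistant and 4.19 to 4.25 on sensitive arrays of dog 3, and 2.66 to 2.70 on resistant and 2.90 to 2.96 on sensitive arrays of dog 4. The collagen gene COL1A2 fell in dogs 1, 2 and 3 (-3.13, -1.57 and -1.39), and the proteoglycan gene DCN fell in dogs 1 and 3 (-2.49 and -3.74) and lay below background on the resistant arrays of dog 2, where it was at least 1.88-fold lower. The vascular receptor gene KDR fell in dogs 2 and 3 (-2.08 and -2.91). In dog 1 no resistant array had KDR above background, and it was lower there by at least 2.54-fold. CCL19, a chemokine of the T cell zone, rose in dog 1 (2.497) and fell in dogs 2, 3 and 4 (-2.88, -2.66 and -1.28).

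Neutrophil markers went in opposite directions between dogs. Of 4 measured (of 10), 3 fell and 1 rose in dog 1, 2 rose in dog 2, 3 fell in dog 3 and 0 were called in dog 4. Of all features, 8.1%, 9.84%, 5.39% and 1.5% were called lower in dogs 1 to 4, and 3.83%, 3.98%, 1.36% and 4.06% higher. The granule peptide gene CAMP changed by -5.46, 4.49, -5.41 and -0.38 and the gelatinase gene MMP9 by -1.97, 2.52, -4.91 and -0.22. CXCR2, a chemokine receptor gene, fell in dog 1 (-2.17), and the elastase gene ELANE rose in dog 1 (1.44) and fell in dog 3 (-2.11). ELANE, the 1 marker counted as risen in dog 1, was well above background on 1 of 3 sensitive arrays there. In dog 3, ELANE and MMP9 were each well above background on 2 of 3 resistant arrays.

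Of 3 measured macrophage markers (of 12), FCGR1A fell in dog 1, rose in dog 2 and fell in dog 3, CD163, a scavenger receptor gene, fell in dog 3 (-1.33), and 0 were called in dog 4. Their log2 summed signal was 2.60 to 2.63 on resistant and 2.30 to 2.31 on sensitive arrays of dog 1, 4.65 to 4.74 on resistant and 5.001 to 5.10 on sensitive arrays of dog 2, 4.01 to 4.14 on resistant and 3.56 to 3.59 on sensitive arrays of dog 3, and 3.73 to 3.78 on resistant and 4.18 to 4.23 on sensitive arrays of dog 4. These sums rest almost wholly on 1 bright probe, that of CYBB, an oxidase gene not called in any dog, whose changes were 0.62, -0.38, 0.54 and -0.44. Of 3 measured dendritic cell markers (of 12), CLU fell in dogs 1 and 2 (-1.31 and -1.66). FLT3, a growth factor receptor gene, fell in dogs 1 and 3 (-1.09 and -1.36). In dogs 1 to 3, 8.1%, 9.84% and 5.39% of all features were called lower. CD1C, which presents lipids, rose in dog 3 (1.12), where 1.36% were called higher. In dog 4, 0 of these 3 markers were called. Their log2 summed signal was 4.70 to 4.79 on resistant and 6.05 to 6.07 on sensitive arrays of dog 1, 6.55 to 6.60 on resistant and 8.204 to 8.29 on sensitive arrays of dog 2, 6.70 to 6.72 on resistant and 7.34 to 7.36 on sensitive arrays of dog 3, and 6.30 to 6.44 on resistant and 6.45 to 6.50 on sensitive arrays of dog 4. It was lower on every resistant array than on any sensitive array of the same dog, in dog 4 only narrowly (at most 6.437 against at least 6.446). Of all features, 62.2%, 68.7%, 55.1% and 56.4% did not overlap, in either direction, in dogs 1 to 4. The sum rests almost wholly on the CLU probe, whose changes in dogs 3 and 4 were -0.63 and -0.12. CD1C went the other way, by 0.23, 0.56, 1.12 and 0.63 in dogs 1 to 4. The part of these cells in the antigen changes was not tested.

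**Figure D3:**
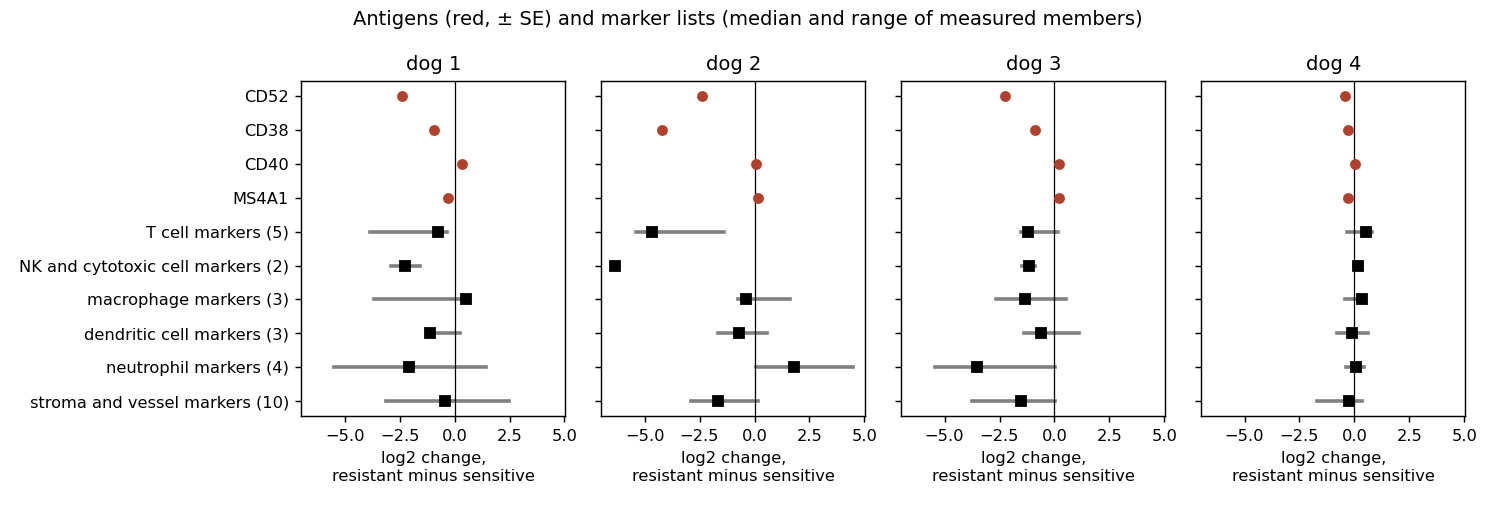
Change of each antigen (red points, with bars of 1 SE that are mostly smaller than the point) and of 6 marker lists in each dog, in log2 units, resistant minus sensitive. Squares are list medians, with genes below background in 1 phase at their bound, and grey bars the range of the fitted changes of the measured members, whose number is in parentheses. T cell and natural killer cell markers lie furthest to the left in dog 2, where CD38 does too, while CD52 lies at nearly the same place in dogs 1, 2 and 3.

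Among the other 717 genes with a symbol, those most like each antigen over the 8 group means were found by Pearson correlation, given as a description of 8 points that share dogs. For CD52 they were CD40LG (0.973), FCER1A (0.958), which encodes the alpha chain of the high-affinity IgE receptor, and PTGDS (0.940), a prostaglandin D synthase. For CD38 they were MITF (0.995), a transcription factor, FCER1G (0.988) and the cytokine gene IL18 (0.973). MITF changed by -0.99, -3.10, -0.90 and -0.15 in dogs 1 to 4, close to the CD38 values in dogs 1 and 3. For CD40 they were GDI2 (0.966), a regulator of Rab GTPases, the chaperone gene HSPA4 (0.930) and GHRL (0.913), which encodes ghrelin. For MS4A1 they were CNGA1 (0.952), a cyclic nucleotide-gated channel gene, the apoptosis gene BAD (0.893) and SOD1 (0.873), a superoxide dismutase gene. A gene with a symbol made up 2.59% of the features tested, so these are the closest of a small share of the array.

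**Figure D4:**
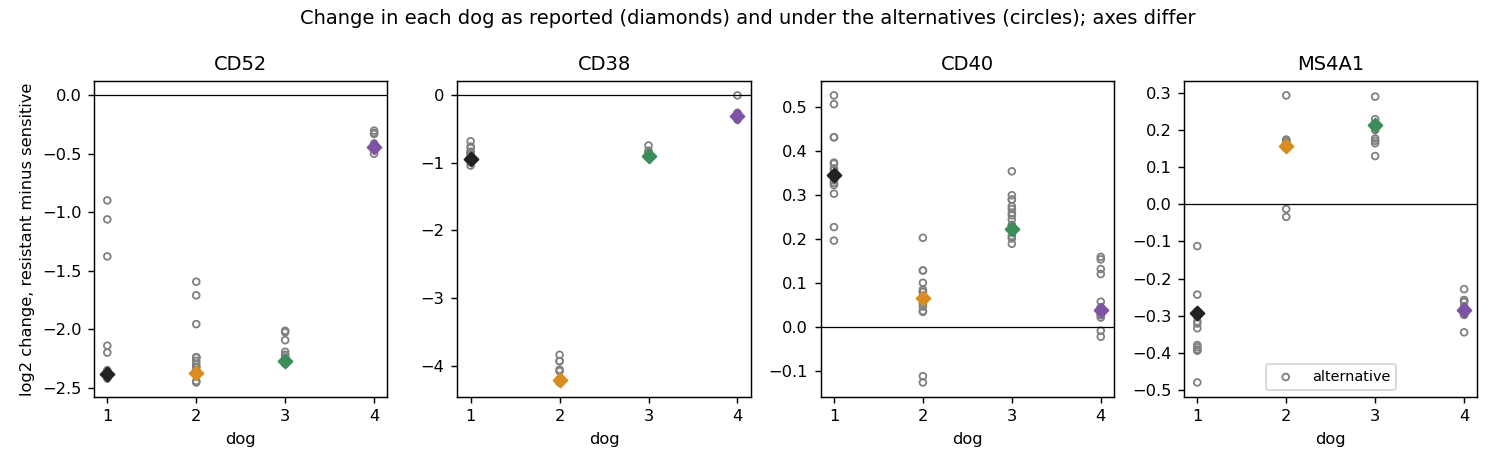
Change of each antigen in each dog as reported (filled diamonds) and under the other processing settings and with single replicates left out (open circles), in log2 units, resistant minus sensitive; the vertical axes differ between genes. CD52 of dog 1 has an open circle at -0.90, CD38 of dog 4 has one at -0.01, and the circles of CD40 in dogs 2 and 4 and of MS4A1 in dog 2 fall on both sides of 0.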

How the data were processed

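RNA of whole lymph node aspirates was profiled on 24 one-colour Agilent arrays, 3 for each of 4 dogs and 2 phases, grouped by their labels. The deposited scanner output gives spot intensity from Agilent Feature Extraction (version 10.7.3.1, per the file headers), already background-subtracted by the authors' software and not normalised between arrays. The authors' deposited value table equalled the raw median intensity exactly (largest difference 0). It is linear and uncentred, with column medians of 97 to 115.5 on resistant and 99 to 141 on sensitive arrays. Accessions were named through RefSeq genes of UU_Cfam_GSD_1.0: 832 of 35908 identifiers matched.

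Values were log2 of the processed signal minus each array's 75th percentile. Control spots (1417 of 45220) and outlier spots were left out. A probe was kept where every array of some dog and phase had it well above background (34550 of 43603), and the brightest probe stood for a gene. Limma 3.58.1 (R 4.3.3) was fitted across dogs to 8 group means, blocked on the dog, and within dogs and for the interaction on 24 arrays. Alternatives included normexp correction with an offset of 50, with quantile normalisation or the 75th percentile, median and quantile scaling, other probe filters, slide and replicate blocks, and left-out arrays and dogs. All tests were two-sided, with p-values adjusted over all features, and the scripts were tested on simulated data. The replicate numbers did not pair the arrays (correlations of -0.13 to 0.09). Members, marker lists and alternatives were chosen with earlier results of these data known. Beyond the antigens, list genes called in any dog were named, largest change first, up to 4 a list, and NFKB1, BIRC2, BIRC3 and CD47 after their values were seen; likeness was ranked by correlation. Sequences were not analysed here. The result of 1 marker list is not reported here.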

Additional observations from a re-analysis of the deposited data

Results flagged for a closer look

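In the 12 sets of 4 dogs tested (the change, the resistant level and the sensitive level of each antigen), 1 dog stood apart from the other 3 in the change of CD52, where the gap of dog 4 to its nearest neighbour took up 0.943 of the range of the 4 changes, and in the change of CD38, where that of dog 2 took up 0.837. The limit for 4 values is 0.829, and chance flags about 1 in 20 such sets. Dog 4 is the dog whose resistant arrays were scanned in a session of their own. The changes of all 4 antigens differed between dogs in limma's interaction test, with adjusted p-values of 3.37e-09 for MS4A1, 0.000393 for CD40, 6.94e-19 for CD38 and 2.13e-12 for CD52, in a test that 78.8% of features passed.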

How the results depend on the processing

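For the 28 results (the change across dogs, the change in each dog, the interaction and the level between dogs of each antigen), 351 alternative values of a change and 99 adjusted p-values kept their direction and their side of the threshold. The exceptions follow, and the cause was not tested unless stated. Across dogs, MS4A1 turned to 0.032 with each array scaled to its median, and ranged from -0.14 to 0.029 with a replicate or a dog left out. With 24 arrays and the group as a random block, CD38 (-1.59) and CD52 (-1.87) passed, as did 1755 features against 0. That fit counts arrays, which may be technical, with a correlation shared by all features. A change across dogs is replicated by 4 dogs only, so these calls do not stand for dogs. On group means, leaving out a replicate or a dog gave -2.02 to -0.72 for CD38, -2.34 to -1.69 for CD52 and 0.11 to 0.21 for CD40. Within dogs, normexp with an offset of 50 and quantile normalisation gave -0.90 for CD52 in dog 1, -0.11 for CD40 in dog 2 and -0.012 for MS4A1 in dog 2. Quantile normalisation of the processed signal gave -0.13 for CD40 in dog 2, -0.034 for MS4A1 in dog 2 and -0.0087 for CD40 in dog 4, and median scaling gave -0.022 for CD40 in dog 4. With normexp scaled to the 75th percentile, the change was -1.06 for CD52 in dog 1, 0.07 for CD40 in dog 2 and 0.17 for MS4A1 in dog 2. The mean of the probes gave -1.04 for CD38 in dog 1. The adjusted p of the CD52 level between dogs was 0.0536 with no filter on dim probes and 0.0420 to 0.0578 with a replicate left out (0.0331 without dog 4). The CD40 interaction had 0.0658 in the authors' value table. The CD52 interaction had 0.398 with the slide as a block, which leaves only dogs 1, 2 and 3 estimable, and 0.541 without dog 4. Normexp scaled to the 75th percentile, slide as a random block, and the level and interaction tests without dog 4, were chosen after seeing the data. The replicate block changed no call: CD52 changed by -2.38 in dog 1 and CD38 by -4.22 in dog 2 with it.

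With each array scaled to its median, the median change over features shifted by 0.18 in dog 1 and 0.14 in dog 2. The share of calls that were higher, 32.1% in dog 1, 28.8% in dog 2 and 73.0% in dog 4, became 46.7% and 39.7% in dogs 1 and 2 with median scaling, 46.5% and 50.8% in dogs 1 and 4 with quantile normalisation, and 44.4% in dog 4 with normexp and quantile normalisation. Features called in dogs 1 to 4 numbered 3308, 3830, 1871 and 1542, against 845, 1552, 596 and 180 with normexp and quantile normalisation, 910, 1667, 660 and 161 with normexp and the 75th percentile, 1297, 2159, 874 and 234 in the value table, and 1533, 2138, 866 and 435 where probes had to be above background on all arrays. Dog 4 had 2581 calls with no filter. The level test called 1678 features, against 3488 and 3733 with these normexp settings, 3308 in the value table, 2696 with the strict filter, 1100 with no filter, 1050 without replicate 1 and 274 without dog 4. Low signal limits CD52 in dog 1, and 4 dogs limit the test across dogs.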
